A study of Mus musculus with 12 samples.

Results

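The genes described here encode the protein subunits of the mitochondrial respiratory chain and ATP synthase that are made from nuclear DNA. They were chosen by name, as all symbols that begin with Nduf followed by a, b, c, s or v and a number, are Sdha, Sdhb, Sdhc or Sdhd, or begin with Uqcr, Cox4 to Cox8 or Atp5. Of 24346 symbols in each table, 84 matched, and 80 of these reached an FPKM of at least 1 in 2 or more of the 12 libraries. FPKM values are read counts scaled to transcript length and library size, so that levels of different genes can be set side by side. Over all symbols, 11662 reached that level. The 80 genes comprised 35 of complex I, 4 of complex II, 8 of complex III, 16 of complex IV and 15 of complex V, together with Atp5s and Atp5sl, which match by name but are not subunits. Ndufa4 was counted with complex IV. Cox7b2, Cox8b, Cox8c and Ndufa4l2 did not reach the limit.

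The libraries were made from myeloid-derived suppressor cells (MDSCs), immature myeloid cells that restrain T cell and NK cell responses in tumors. M-MDSCs, the monocytic subset (CD11b+ Ly-6Chi Ly-6G-), and PMN-MDSCs, the polymorphonuclear subset (CD11b+ Ly-6Cint Ly-6G+), were sorted from liver tumors grown from Hepa 1-6, a mouse hepatoma cell line, in female C57BL/6J mice of wild-type genotype. The mice had received vehicle, MS-275 or CXD101, both of which inhibit histone deacetylases 1, 2 and 3, and each of the 6 combinations of subset and treatment had 2 libraries. The study describes the M-MDSC libraries as biological replicates, whereas the origin of the PMN-MDSC pairs is not described, so p-values there measure the spread between libraries that may be technical. Whether M-MDSC and PMN-MDSC libraries of the same treatment came from the same mice is not stated in the sources used here.

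The respiratory chain passes electrons from NADH and succinate to oxygen and pumps protons across the inner mitochondrial membrane. Complex I (NADH dehydrogenase) and complex II (succinate dehydrogenase) take in electrons, complex III (cytochrome bc1) passes them to cytochrome c, complex IV (cytochrome c oxidase) reduces oxygen, and complex V (ATP synthase) uses the proton gradient to make ATP. All complexes except complex II also hold subunits encoded by mitochondrial DNA, which were not analysed here. Mature neutrophils hold few mitochondria and depend largely on glycolysis, and monocytes hold more.

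Differences are given as log2 fold changes of FPKM + 1 with their standard error, tested with limma on all expressed genes. A gene was called when its Benjamini-Hochberg adjusted p-value was under 0.05 and its fold change above 1.5. The labelled cell types differed in their defining transcripts: the summed FPKM of 8 PMN-MDSC markers was 69914 to 95781 in vehicle PMN-MDSCs and 10979 to 11771 in vehicle M-MDSCs, and the summed FPKM of 6 hepatocyte and liver tumor markers was at most 3.39 in any library. Ly6g was not found among the symbols, and of 6 M-MDSC markers 3 were lower and 3 higher in vehicle PMN-MDSCs by adjusted p, with sums of 1853 to 1922 in M-MDSCs and 1535 to 1538 in PMN-MDSCs. S100a8 and S100a9, which encode the granulocyte protein calprotectin, took 10.2% and 13.7% of the summed FPKM of vehicle PMN-MDSCs and 27.3% to 30.9% in treated PMN-MDSCs, and 1.78% to 4.28% in M-MDSCs. The steps between low FPKM values placed the depth at 8390000 to 10600000 reads in the M-MDSC libraries and 7070000 to 8150000 reads in the PMN-MDSC libraries. For a log2 fold change, the standard error had a median of 0.070 for the respiratory chain genes and 0.098 for all genes tested in M-MDSCs, and 0.087 and 0.114 in PMN-MDSCs.

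The respiratory chain genes took 3.12% and 3.26% of the summed FPKM in vehicle M-MDSCs and 2.23% and 2.09% in vehicle PMN-MDSCs. Their share was 2.82% and 2.88% in M-MDSCs from MS-275-treated mice and 3.06% and 3.01% with CXD101. In PMN-MDSCs the share was 1.24% and 1.34% with MS-275 and 1.38% and 1.36% with CXD101. With S100a8 and S100a9 left out of the sum, it was 2.49% and 2.42% in vehicle PMN-MDSCs, 1.76% and 1.84% with MS-275 and 1.94% and 1.97% with CXD101. Thus the treated PMN-MDSC libraries were below both vehicle libraries with and without the S100 genes. In bulk samples, fewer cells of a type and less RNA per cell cannot be told apart.

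Within the chain, the highest level in vehicle M-MDSCs was that of Atp5b, the catalytic beta subunit of ATP synthase, at 831 and 881 FPKM, and the lowest level among the widely expressed subunits was that of Ndufa11, an accessory subunit of complex I, at 18.9 and 22.3 FPKM. Complex IV exists with alternative subunits in some tissues, and these were far below their common counterparts. Cox4i1, which encodes the common subunit 4, was at 669 and 743 FPKM in vehicle M-MDSCs, and Cox4i2, the form known from lung and from low oxygen, was at 5.08 and 3.97 FPKM. Cox6b1 was at 558 and 623 FPKM and Cox6b2, known from testis, at 2.19 and 0.846 FPKM. Cox7a2 was at 189.9 and 218 FPKM and Cox7a1, the form of heart and skeletal muscle, at 6.95 and 8.45 FPKM.

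Under vehicle, most respiratory chain genes were lower in PMN-MDSCs than in M-MDSCs. Of 80 tested, 19 were called lower and 0 higher, where 16.8% of all genes tested were called lower and 17.2% higher, and 59 had an unadjusted p under 0.05 in limma, as did 7675 of 11662 genes tested. Among the 19 was Cox6a2, which reached an FPKM of 1 in 5 libraries, none of them from PMN-MDSCs. It entered the test only through M-MDSCs, where it was higher. With no filter on low FPKM, a limit of 5 or no intensity trend it was not called. With adjusted p alone, 55 were lower and 2 higher, against 31.5% and 30.5% of all genes. The median difference was -0.42 for the respiratory chain genes and -0.01 for all genes tested. All 5 complexes had a median below 0: -0.39 for complex I, -0.48 for complex II, -0.49 for complex III, -0.42 for complex IV and -0.36 for complex V. All 6 proliferation markers were also lower in PMN-MDSCs, with a summed FPKM of 261 to 284 against 691 to 776 in M-MDSCs. Of 8 progenitor markers 5 were lower and 3 higher by adjusted p, with sums of 197 to 334 against 1688 to 1715. The sums of 7 eosinophil markers were 341 to 377 against 160 to 197, and those of 6 macrophage markers 181 to 191 against 145 to 147. In each of these 2 lists, 4 markers were higher and 1 lower by adjusted p. The part of these transcripts in the result was not tested.

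Several of the largest differences were in ATP synthase. Atp5a1, the alpha subunit of its catalytic head, was at 252 and 215 FPKM in vehicle PMN-MDSCs and 441 and 462 FPKM in M-MDSCs, a log2 difference of -0.95 ± 0.08 (adjusted p = 1.5e-06). Atp5b was at 477 and 437 FPKM in PMN-MDSCs (-0.91 ± 0.07, adjusted p = 1.1e-06). Atp5g1 and Atp5g3, 2 of the 3 genes that encode the same membrane c-ring subunit, differed by -0.95 ± 0.13 (adjusted p = 9.8e-05) and -0.82 ± 0.09 (adjusted p = 1.1e-05). In complex III, Uqcrfs1, the Rieske iron-sulfur protein, was at 61.2 and 52.9 FPKM in PMN-MDSCs and 98.5 and 104 FPKM in M-MDSCs (-0.82 ± 0.10, adjusted p = 4.4e-05). The libraries of the cell types did not overlap for any of these 5 genes, which were named for their large differences. By chance alone, 33.3% of genes would not overlap with 2 libraries against 2, here and in the pairs of groups below. That share holds where no gene differs, and the observed share over all genes was not calculated.

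In complex IV, Cox4i2 differed by -1.13 ± 0.19 (adjusted p = 0.00042), and Ndufa4, a subunit first assigned to complex I, by -0.89 ± 0.09 (adjusted p = 1e-05). Ndufv1, which carries the NADH binding site of complex I, differed by -0.83 ± 0.12 (adjusted p = 0.00011), and Sdha, the flavoprotein of complex II, by -0.67 ± 0.06 (adjusted p = 6.9e-06). The 2 genes higher in PMN-MDSCs by adjusted p alone were Ndufa1 (0.37 ± 0.08, adjusted p = 0.0028) and Ndufa7 (0.33 ± 0.09, adjusted p = 0.0081), both accessory subunits of complex I. In place of 2 such genes there was 1 without vehicle M-MDSC replicate 1 or vehicle PMN-MDSC replicate 1, and there were 4 without vehicle M-MDSC replicate 2. Ndufs8, which binds iron-sulfur clusters of complex I, was at 112 and 109 FPKM in PMN-MDSCs and 102 and 122 FPKM in M-MDSCs, with overlapping libraries and a difference of -0.02 (95% interval -0.19 to 0.16).

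**Figure D1:**
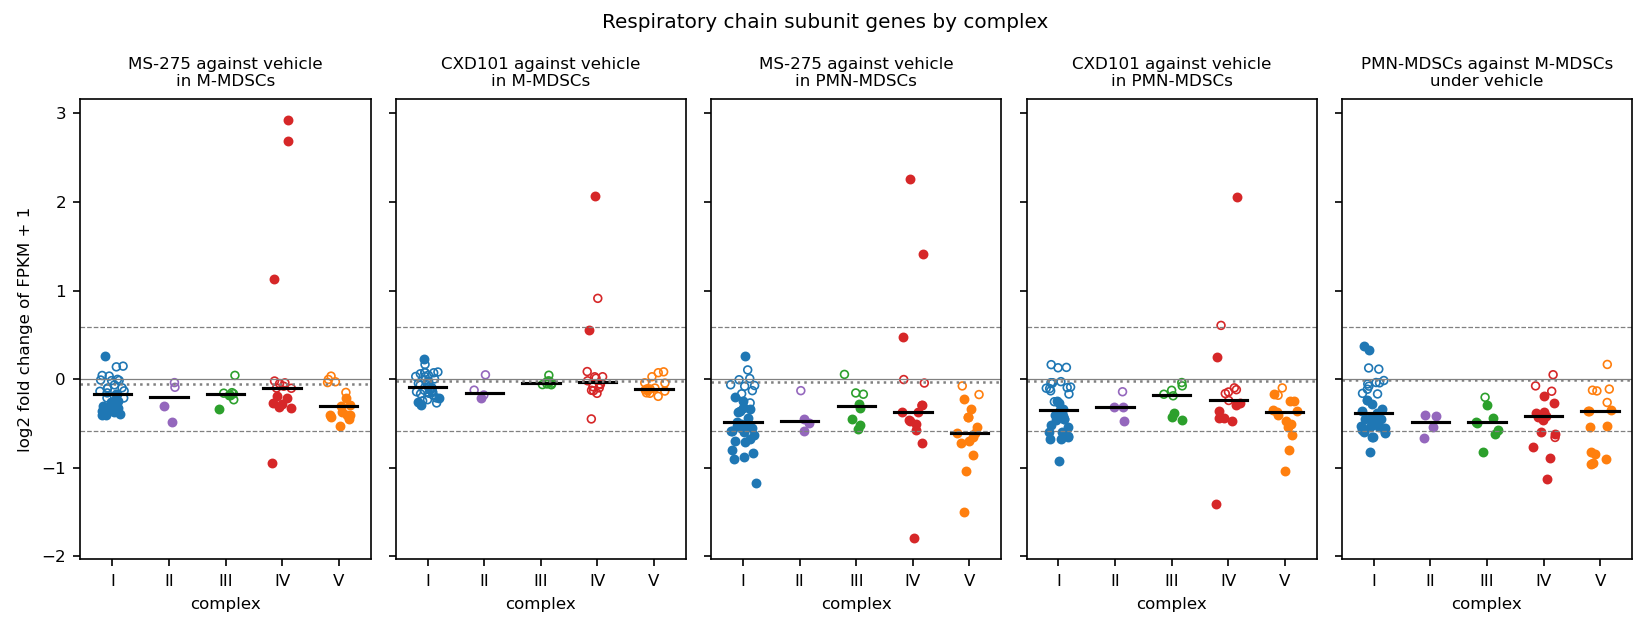
Log2 fold change of FPKM + 1 (vertical axis) of each subunit gene by complex (horizontal axis) in 5 comparisons. Filled points had an adjusted p under 0.05, black bars are the medians of each complex, the dotted line is the median of all genes tested and dashed lines mark a fold change of 1.5; in PMN-MDSCs with MS-275 the complex V median is -0.60 and that of all genes -0.03.

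With MS-275, respiratory chain genes fell in PMN-MDSCs across all 5 complexes. Of 79 genes tested, 23 were called lower and 2 higher than with vehicle, where 14.2% and 14.6% of all genes were called. By adjusted p alone, 55 were lower and 4 higher, against 28.5% and 25.3% of all genes. The median change was -0.44 for the respiratory chain genes and -0.03 for all genes tested. Complex V had a median of -0.60 with 13 of 15 genes lower by adjusted p, complex I had -0.48 with 25 of 35, complex II had -0.47 with 3 of 4, complex IV had -0.37 with 9 of 15 and complex III had -0.30 with 5 of 8. All 7 core subunits of complex I, the conserved catalytic part, were lower by adjusted p, as were 18 of its 28 accessory subunits. Without MS-275 PMN-MDSC replicate 1, 15 genes were called lower in place of 23.

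With CXD101, 11 of the 79 genes were called lower in PMN-MDSCs and 1 higher, where 9.54% and 11.9% of all genes were called. With adjusted p alone, 47 were lower and 2 higher, against 23.9% and 21.4% of all genes. The 47 became 31 without CXD101 PMN-MDSC replicate 2. The median change was -0.31, and -0.03 over all genes tested. Again 13 of 15 complex V genes and 21 of 35 complex I genes were lower by adjusted p. Both comparisons used the same 2 vehicle libraries. In the deposited FPKM scale the fall coincided with the rise in S100a8 and S100a9 given above. When libraries were instead scaled to equal sums without those genes, 28 respiratory chain genes were called lower with MS-275 and 11 with CXD101. Median-of-ratios scaling gave 19 and 9, and quantile normalization 18 and 8. The summed FPKM of 8 PMN-MDSC markers, S100a8 and S100a9 included, was 69914 to 95781 with vehicle, 236034 to 259429 with MS-275 and 244406 to 270046 with CXD101. By adjusted p, 6 of them were higher and 1 lower with each inhibitor. That of 8 progenitor markers was 197 to 334, 372 to 434 and 375 to 442, with 4 higher and 1 lower for MS-275 and 4 higher and 0 lower for CXD101. The summed FPKM of 6 macrophage markers was 181 to 191 in vehicle PMN-MDSCs and 111 to 143 in treated ones, and that of 6 proliferation markers 261 to 284 and 230 to 255. By adjusted p, 4 of the macrophage markers were lower and 1 higher with MS-275 and 5 lower and 1 higher with CXD101, and of the proliferation markers 2 were lower and 2 higher with MS-275 and 1 lower with CXD101. The sum of 7 eosinophil markers was 341 to 377 with vehicle, 383 to 421 with MS-275 and 464 to 491 with CXD101. By adjusted p, 3 and 2 of them were higher with MS-275 and CXD101, and 1 was lower with each. For 6 M-MDSC markers the sums were 1535 to 1538, 2449 to 2640 and 2405 to 2597, with 2 higher and 3 lower for each inhibitor. The part of all these transcripts in the result was not tested.

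The largest fall among widely expressed subunits was that of Atp5g1. It was at 184 and 150.3 FPKM in vehicle PMN-MDSCs, 51.2 and 66.0 FPKM with MS-275 and 87.1 and 74.4 FPKM with CXD101, so that every treated library was below both vehicle libraries. The log2 changes were -1.502 ± 0.14 (adjusted p = 0.00011) and -1.04 ± 0.14 (adjusted p = 0.00097). The other genes for the same c-ring protein had smaller log2 changes. Atp5g2 was at 269 and 247 FPKM with vehicle and 169 and 184 FPKM with MS-275 (-0.54 ± 0.07, adjusted p = 0.00059), and Atp5g3 at 299 and 263 and 199.97 and 217 FPKM (-0.43 ± 0.08, adjusted p = 0.0028). The difference between these paralogs was not tested. Of the 4615 101-base stretches of the longest Atp5g1 coding transcript, 284 (6.15%) also occur in the gene Gm10039. Reads from Gm10039 could thus have been counted with Atp5g1. That transcript has 4715 bases, whereas the median of the longest coding transcripts of the 84 matching genes is 863 bases. A larger part of a shorter Atp5g1 transcript could be shared, which was not examined.

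Atp5b fell from 477 and 437 FPKM to 240.1 and 263 FPKM with MS-275 (-0.86 ± 0.08, adjusted p = 9.2e-05) and to 309 and 281 FPKM with CXD101 (-0.63 ± 0.08, adjusted p = 0.00058). Atp5k, which encodes subunit e of the membrane part, fell from 589 and 707 FPKM to 316 and 313 FPKM with MS-275 (-1.03 ± 0.11, adjusted p = 0.0002) and to 335 and 408 FPKM with CXD101 (-0.80 ± 0.11, adjusted p = 0.001). No treated library reached the lower vehicle library for either gene, though Atp5b with CXD101 fell short of a 1.5-fold change without vehicle replicate 1 or CXD101 replicate 2. Atp5d, the delta subunit of the head, and Atp5h, a subunit of the stalk, were the exceptions in complex V: with MS-275 they differed by -0.17 (95% interval -0.44 to 0.09) and -0.08 (95% interval -0.21 to 0.06).

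In complex I, Ndufs8 fell from 112 and 109 FPKM with vehicle to 45.9 and 50.9 FPKM with MS-275 and 56.3 and 59.0 FPKM with CXD101. The changes were -1.17 ± 0.07 (adjusted p = 1.7e-05) and -0.92 ± 0.07 (adjusted p = 8.2e-05), and the treated and vehicle libraries were far apart. Ndufa10, an accessory subunit of the membrane arm, was at 70.1 and 69.5, 34.2 and 39.9 and 45.1 and 41.7 FPKM in the same order (-0.90 ± 0.09, adjusted p = 0.00013, and -0.68 ± 0.09, adjusted p = 0.00076). Sdhb, the iron-sulfur subunit of complex II, was at 93.7 and 93.3 FPKM with vehicle and 64.6 and 59.5 FPKM with MS-275 (-0.59 ± 0.07, adjusted p = 0.00033). Uqcrc1, a core protein of complex III, was the member of that complex with the largest change, -0.56 ± 0.09 (adjusted p = 0.0017). Cox7a2 fell from 194 and 176 FPKM to 105 and 118 FPKM (-0.72 ± 0.10, adjusted p = 0.00053).

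A few genes went the other way in PMN-MDSCs. Cox7a2l is counted with complex IV as a factor of supercomplexes, joined forms of chain complexes. Only transcripts were measured here. Whether the mice used make a working protein from Cox7a2l was not tested. Its transcript rose from 136 and 125 FPKM with vehicle to 175 and 188 FPKM with MS-275 (0.47 ± 0.07, adjusted p = 0.00091) and 154 and 156 FPKM with CXD101 (0.25 ± 0.07, adjusted p = 0.022). All 4 treated libraries were above both vehicle libraries, although the change with CXD101 no longer passed without vehicle replicate 2 or either CXD101 replicate. Ndufv3, an accessory subunit next to the NADH binding site, rose from 167 and 172 to 202 and 204 FPKM with MS-275 (0.26 ± 0.06, adjusted p = 0.0072). Cox4i1 and Cox5a, both common subunits of complex IV, differed from vehicle by -0.04 (95% interval -0.27 to 0.18) and -0.0043 (95% interval -0.14 to 0.13) with MS-275.

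**Figure D2:**
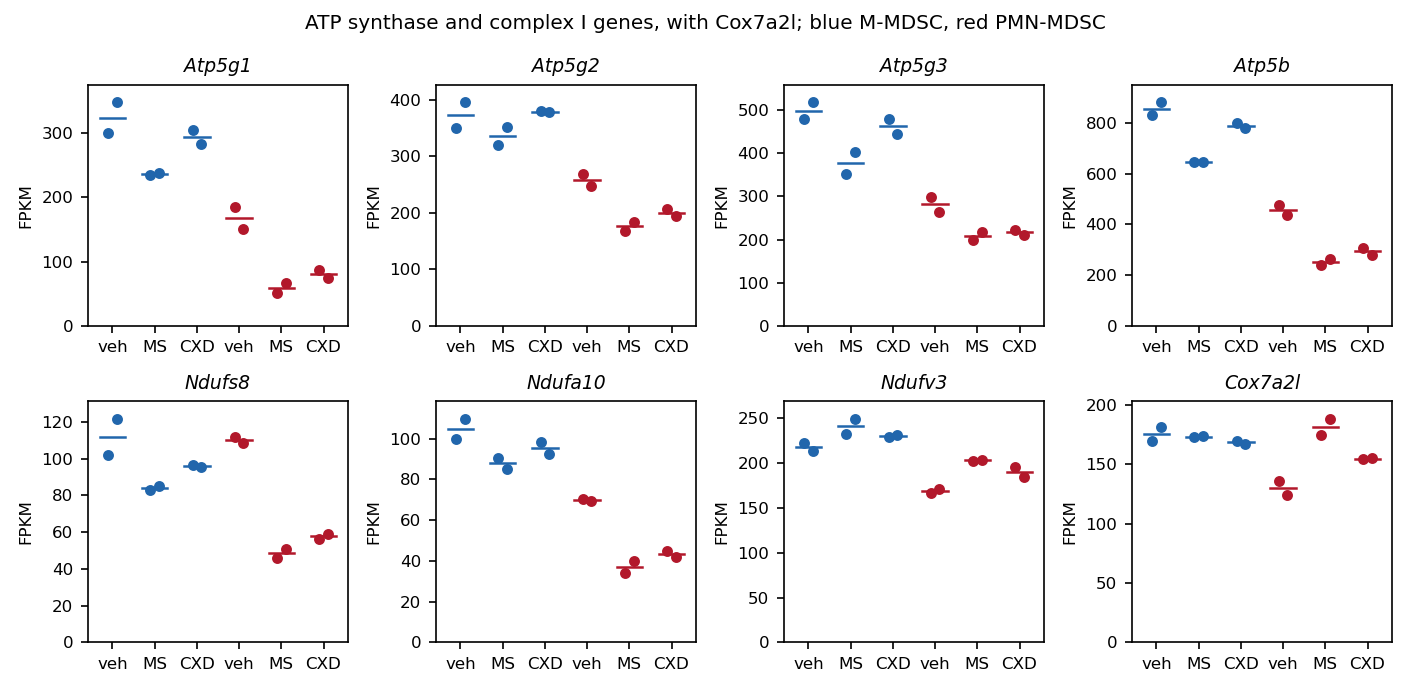
FPKM (vertical axis, from 0) of 8 subunit genes in each library, as points, with bars at the mean of 2 libraries; veh is vehicle, MS is MS-275 and CXD is CXD101. In PMN-MDSCs, Atp5g1 and Ndufs8 of treated mice lie below both vehicle libraries and Cox7a2l and Ndufv3 above them.

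In M-MDSCs the changes were mostly below 1.5-fold. With MS-275, 3 of 80 genes were called higher and 1 lower, where 10.1% and 7.32% of all genes were called. All 4 were complex IV isoform genes, described below, and of the 3 higher ones Cox6b2 and Cox6a2 passed the FPKM limit through their treated libraries. By adjusted p alone, 39 were lower and 4 higher, against 27.3% and 19.2% of all genes, with a median change of -0.17, and -0.06 over all genes tested. The fall was largest in complex V, with a median of -0.31 and 10 of 15 genes lower by adjusted p, and in the core of complex I, with a median of -0.30 and 6 of 7 genes. This fall depended on the scaling: under quantile normalization the median was -0.05 and 22 genes were lower by adjusted p, and with equal sums without S100a8 and S100a9 the median was -0.10 and 29 were lower.

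Atp5b was at 831 and 881 FPKM in vehicle M-MDSCs and 646 and 648 FPKM with MS-275 (-0.40 ± 0.05, adjusted p = 0.00056). Atp5k went from 809 and 741 to 489 and 589.9 FPKM (-0.53 ± 0.09, adjusted p = 0.0024). Sdhb went from 123 and 124 to 89.6 and 86.5 FPKM (-0.49 ± 0.06, adjusted p = 0.00027), and Ndufs7, an iron-sulfur subunit of complex I, from 96.6 and 109 to 78.1 and 76.0 FPKM (-0.41 ± 0.07, adjusted p = 0.0019). The libraries did not overlap for these 4 genes, and none reached a fold change of 1.5. If no gene differed, 33.3% of genes would not overlap by chance, and the observed share over all genes was not calculated. Ndufa7 was higher, at 217 and 202 FPKM against 169 and 179.8 FPKM (0.26 ± 0.06, adjusted p = 0.008), which did not pass without vehicle replicate 1 or MS-275 replicate 1. In these libraries other transcripts moved as well: the summed FPKM of 8 progenitor markers was 1688 and 1715 with vehicle and 4693 to 5015 with MS-275, and that of 6 proliferation markers 691 to 776 and 475 to 478. The sum of 8 PMN-MDSC markers was 10979 to 11771 and 21910 to 25833, that of 7 eosinophil markers 160 to 197 and 389 to 418, and that of 6 macrophage markers 145 to 147 and 75.2 to 81.3. By adjusted p, 5 PMN-MDSC markers were higher and 2 lower, 5 eosinophil markers higher and 0 lower, and 2 macrophage markers higher and 4 lower. All 8 progenitor markers were higher and 5 of 6 proliferation markers lower. The part of these transcripts in the fall was not tested.

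**Figure D3:**
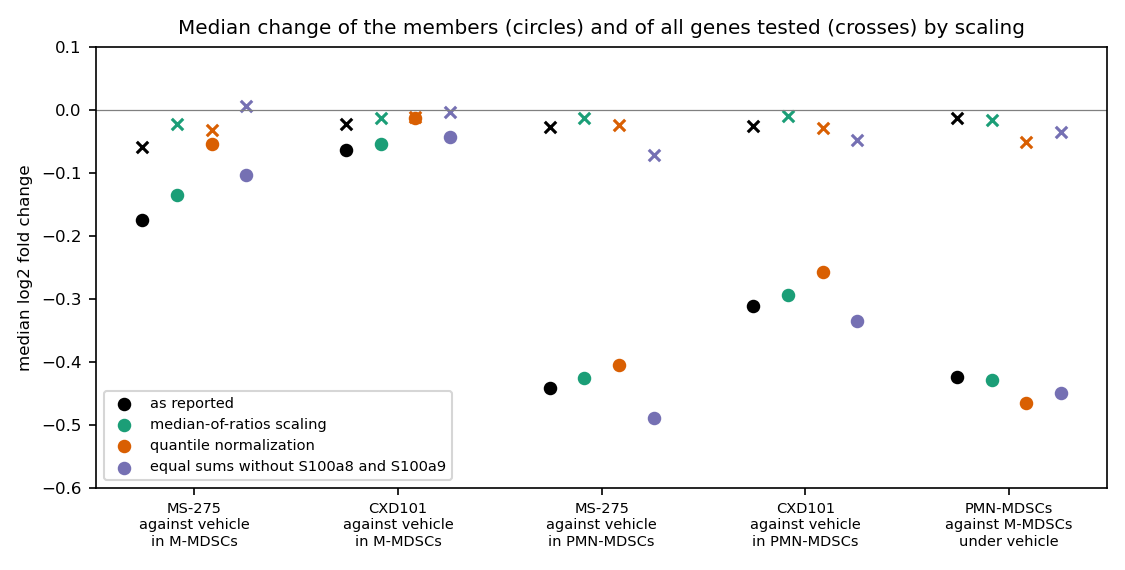
Median log2 fold change (vertical axis) of the respiratory chain genes (circles) and of all genes tested (crosses) in 5 comparisons (horizontal axis) under the deposited scale and 3 other scalings (colors). In PMN-MDSCs and between cell types the medians of the respiratory chain genes stay between -0.26 and -0.49 under each, whereas with MS-275 in M-MDSCs they range from -0.05 to -0.17.

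With CXD101, 1 of 80 genes was called higher in M-MDSCs and 0 lower by limma, where 5.14% and 3% of all genes were called, and 18 genes had an unadjusted p under 0.05 in either direction, against 4046 of 11078 genes tested. With adjusted p alone, 3 were higher and 4 lower, against 10.9% and 12.2% of all genes. The 4 lower genes were 3 accessory subunits of complex I, Ndufa8 (-0.29 ± 0.06, adjusted p = 0.0086), Ndufb5 (-0.21 ± 0.06, adjusted p = 0.031) and Ndufb8 (-0.25 ± 0.06, adjusted p = 0.018), and Sdhb (-0.21 ± 0.06, adjusted p = 0.027). In PMN-MDSCs with CXD101 the same genes changed by -0.65, -0.51, -0.53 and -0.47, each past the adjusted p limit. The count of 4 was 1 without vehicle M-MDSC replicate 2, 2 without CXD101 M-MDSC replicate 2 and 1 under quantile normalization, and the count of 3 was 1 without CXD101 M-MDSC replicate 2. The median change was -0.06, and -0.02 over all genes tested. It was -0.03 without vehicle M-MDSC replicate 2, -0.10 without vehicle M-MDSC replicate 1 and -0.12 without CXD101 M-MDSC replicate 1, and -0.01 under quantile normalization.

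The largest changes in the whole group were in complex IV isoforms. Cox4i2 was at 5.08 and 3.97 FPKM in vehicle M-MDSCs, 39.6 and 42.1 FPKM with MS-275 and 6.66 and 7.44 FPKM with CXD101. In PMN-MDSCs it was at 1.499 and 1.54, 5.98 and 5.43 and 2.0 and 3.91 FPKM. Both MS-275 M-MDSC libraries stood far above the other 10. The log2 changes with MS-275 were 2.93 ± 0.11 in M-MDSCs (adjusted p = 1.7e-06) and 1.41 ± 0.22 in PMN-MDSCs (adjusted p = 0.0013). With CXD101 they were 0.55 ± 0.11 in M-MDSCs (adjusted p = 0.011), a change that did not pass without CXD101 M-MDSC replicate 2, and 0.61 ± 0.22 in PMN-MDSCs (adjusted p = 0.056). At the estimated depth and a transcript of 733 bases, these values correspond to about 27 to 36 reads in vehicle M-MDSCs and 259 to 307 with MS-275, and about 9 reads in each vehicle PMN-MDSC library. The gene lies at chr2:152754173-152765037 on the plus strand of GRCm38, and no exon of another GENCODE M21 gene overlaps it. Even in the MS-275 M-MDSC libraries it stayed below Cox4i1, at 606 and 630.3 FPKM there.

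Cox6b2 rose with both inhibitors in both cell types. It was at 2.19 and 0.846 FPKM in vehicle M-MDSCs, 12.05 and 17.9 FPKM with MS-275 and 9.16 and 9.20 FPKM with CXD101. In PMN-MDSCs it was at 1.12 and 1.97 FPKM with vehicle, 10.9 and 11.1 FPKM with MS-275 and 8.50 and 10.4 FPKM with CXD101. All 8 treated libraries were above all 4 vehicle libraries, which held about 5 to 12 reads each at the estimated depth. The changes with MS-275 were 2.69 ± 0.25 (adjusted p = 9e-05) in M-MDSCs and 2.26 ± 0.18 (adjusted p = 4.9e-05) in PMN-MDSCs. The changes with CXD101 were 2.07 ± 0.25 (adjusted p = 0.001) and 2.05 ± 0.18 (adjusted p = 0.00012). In M-MDSCs Cox6b2 passed the FPKM limit through its treated libraries, where it was high. Its common counterpart Cox6b1 did not rise: it was at 483 and 498 FPKM in vehicle PMN-MDSCs and 367 and 348 FPKM with MS-275 (-0.46 ± 0.06, adjusted p = 0.00047).

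The sequences upstream of the annotated starts of this pair are shown because the genes encode alternative forms of the same subunit and moved in opposite directions. They come from the RefSeq promoter table of GRCm38.p6 and were cut to the stretch without annotated exons, on the minus strand at chr7:4753095-4753225 for Cox6b2 and chr7:30626152-30626364 for Cox6b1. Neither stretch holds the searched motifs described further on, which would be in capitals, but the full promoter window of Cox6b1 holds an ETS core outside the printed stretch.
Cox6b2: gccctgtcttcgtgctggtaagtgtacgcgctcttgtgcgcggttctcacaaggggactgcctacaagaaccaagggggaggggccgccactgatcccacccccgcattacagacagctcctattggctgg
Cox6b1: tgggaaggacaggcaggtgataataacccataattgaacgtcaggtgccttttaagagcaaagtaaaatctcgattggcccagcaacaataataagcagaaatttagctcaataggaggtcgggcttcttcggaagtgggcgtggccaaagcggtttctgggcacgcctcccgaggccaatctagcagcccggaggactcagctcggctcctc

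Cox7a1 fell. It was at 6.95 and 8.45 FPKM in vehicle M-MDSCs, 3.67 and 3.31 FPKM with MS-275 and 6.50 and 4.38 FPKM with CXD101. In PMN-MDSCs it was at 4.10 and 4.92 FPKM with vehicle, 0 and 1.51 FPKM with MS-275, where 1 library is listed at 0, and 1.42 and 0.780 FPKM with CXD101. The changes with MS-275 were -0.95 ± 0.17 in M-MDSCs (adjusted p = 0.0022) and -1.79 ± 0.39 in PMN-MDSCs (adjusted p = 0.0058). With CXD101 the change in PMN-MDSCs was -1.40 ± 0.39 (adjusted p = 0.021), which was not called without vehicle replicate 2 or CXD101 replicate 2, with a pseudocount of 0.1 or with no filter on low FPKM, and that in M-MDSCs was -0.45 ± 0.17 (adjusted p = 0.087). The vehicle PMN-MDSC libraries held about 16 and 19 reads, and the treated ones 0 to 5.

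Cox6a2, the striated muscle form of subunit 6a, was tested only in M-MDSCs and in the fits of all 12 libraries. It was at 0.833 and 1.96 FPKM in vehicle M-MDSCs, 6.22 and 2.62 FPKM with MS-275 and 2.98 and 3.83 FPKM with CXD101, and below 1 FPKM in all PMN-MDSC libraries. In M-MDSCs it passed the FPKM limit through its treated libraries, where it was high. The change with MS-275 was 1.14 ± 0.33 (adjusted p = 0.022), but it was not called without vehicle replicate 1, without MS-275 replicate 1, under quantile normalization or with no filter on low FPKM, and it did not enter the test at an FPKM limit of 5. An exon of Itgad, on the opposite strand, overlaps the gene, and whether the authors counted by strand is not given in the sources used here.

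**Figure D4:**
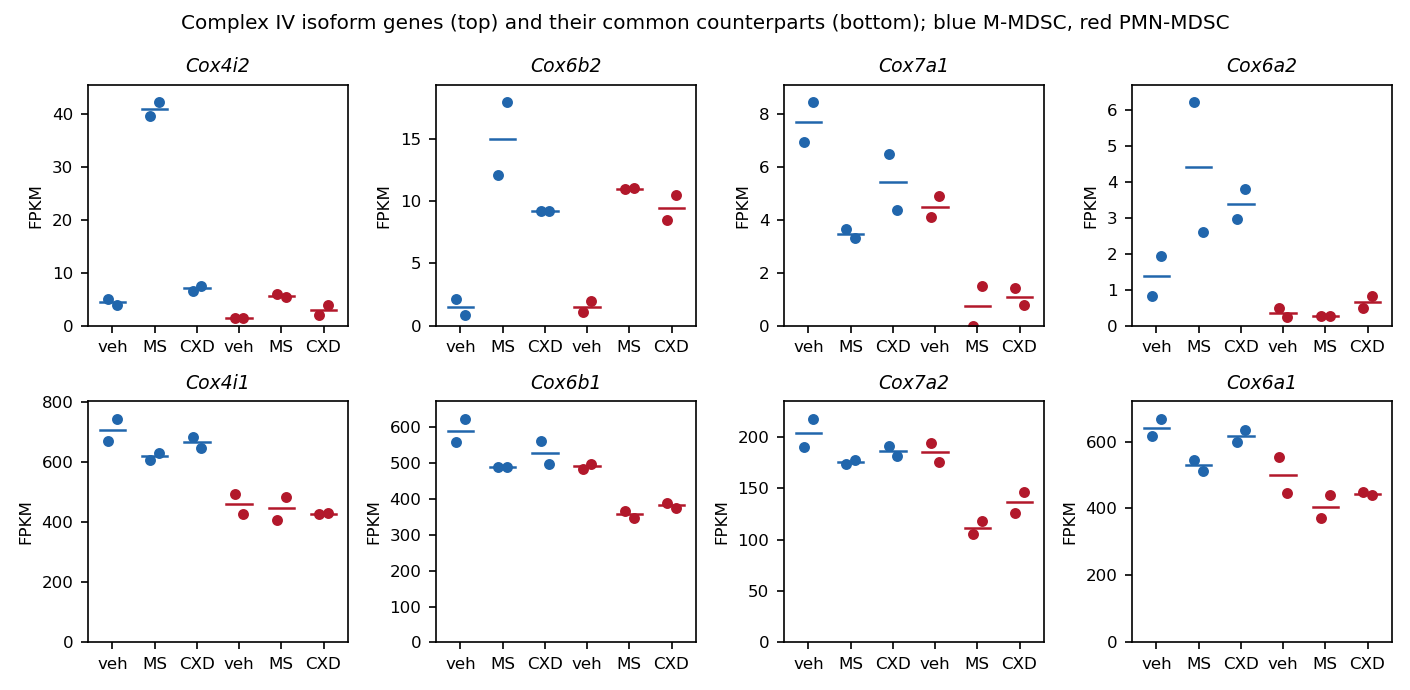
FPKM (vertical axis, from 0) of 4 complex IV isoform genes and of the common gene for the same subunit below each, in every library, with bars at the mean of 2 libraries; veh is vehicle, MS is MS-275 and CXD is CXD101. Cox4i2 reached 39.6 and 42.1 FPKM in M-MDSCs with MS-275, and Cox6b2 was higher in all 8 treated than in all 4 vehicle libraries.

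The inhibitors, given at the same dose, were compared directly over the 2 cell types. In M-MDSCs 1 gene was called higher with MS-275 than with CXD101 and 0 lower, where 3.22% and 1.17% of all genes were called, and 34 of 80 had an unadjusted p under 0.05, against 3380 of 11078 genes tested. The called gene was Cox4i2, with a difference of 2.38 ± 0.11 (adjusted p = 0.0001). With adjusted p alone, 13 genes were lower with MS-275 and 1 higher, against 7.73% and 6.01% of all genes, and 7 of the 13 were in complex V. Ndufs7 differed most among them, by -0.45 ± 0.07 (adjusted p = 0.006). This count was 1 to 8 when any 1 of the 6 libraries was left out, with 1 without MS-275 replicate 1 or CXD101 replicate 1, 5 without MS-275 replicate 2 or CXD101 replicate 2, and 8 when either vehicle replicate was left out; other scalings of the libraries gave 5 or 6. In PMN-MDSCs limma called 0 genes in either direction, where 0.465% of all genes were called higher and 0.340% lower, and 23 of 79 had an unadjusted p under 0.05, against 1717 of 11184. Only Atp5l, subunit g of ATP synthase, passed by adjusted p alone (-0.37 ± 0.06, adjusted p = 0.047), where 0.492% of all genes were lower and 0.68% higher, and 61.3% of its 101-base stretches are shared with 5 other annotated genes. It did not pass when either replicate of MS-275 or CXD101 was left out. For Atp5g1 the PMN-MDSC difference between inhibitors was -0.46 (95% interval -0.80 to -0.13), for Ndufs8 -0.25 (95% interval -0.42 to -0.08) and for Cox6b2 0.20 (95% interval -0.21 to 0.61).

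Whether PMN-MDSCs responded differently from M-MDSCs was tested as an interaction in all 12 libraries. For MS-275, 4 genes had a lower log2 change in PMN-MDSCs, where 9.48% of all genes were called lower and 8.65% higher. They were Cox4i2 (-1.52 ± 0.27, adjusted p = 0.0021), Atp5g1 (-1.06 ± 0.19, adjusted p = 0.002), Ndufs8 (-0.77 ± 0.11, adjusted p = 0.0008) and Ndufa10 (-0.65 ± 0.12, adjusted p = 0.0021). For CXD101, 3 genes did so, where 6.59% of all genes were called lower and 7.31% higher: Atp5g1 (-0.90 ± 0.19, adjusted p = 0.0061), Ndufs8 (-0.71 ± 0.11, adjusted p = 0.0017) and Atp5k (-0.61 ± 0.17, adjusted p = 0.024). None was called higher, where 39 and 41 of the 80 genes had an unadjusted p under 0.05 for MS-275 and CXD101, against 4813 and 4309 of 11662 genes tested. The MS-275 count of 4 was 14 under quantile normalization and 18 with equal sums without S100a8 and S100a9. It was 7 to 10 without vehicle M-MDSC replicate 2, MS-275 M-MDSC replicate 1, either vehicle PMN-MDSC replicate or MS-275 PMN-MDSC replicate 2. Ndufa10 was not called without vehicle M-MDSC replicate 1 or MS-275 PMN-MDSC replicate 1. The CXD101 count of 3 was 5 without CXD101 M-MDSC replicate 2, and Atp5k was not called without replicate 2 of either vehicle group or replicate 1 of either CXD101 group.

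By adjusted p alone, 26 genes had a lower change and 2 a higher one in PMN-MDSCs for MS-275, against 15.1% and 15.9% of all genes. The 2 were Cox7a2l (0.50 ± 0.09, adjusted p = 0.002) and Ndufb11, an accessory subunit of complex I (0.47 ± 0.14, adjusted p = 0.027). Ndufb11 did not pass without replicate 2 of either vehicle group, MS-275 M-MDSC replicate 1 or MS-275 PMN-MDSC replicate 2. The count of 26 was 16 without vehicle M-MDSC replicate 1. For Cox6b2 the responses differed by -0.44 (95% interval -1.23 to 0.36). The changes in the 2 cell types, which share no library but may share mice, had a Pearson correlation of 0.82 across 79 genes for MS-275 and 0.83 for CXD101. Without the isoform genes, Atp5s and Atp5sl, it was 0.57 and 0.51 across 74 genes, and over all genes tested in both it was 0.64 and 0.55. Genes are not independent replicates, and these values are given as a description.

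**Figure D5:**
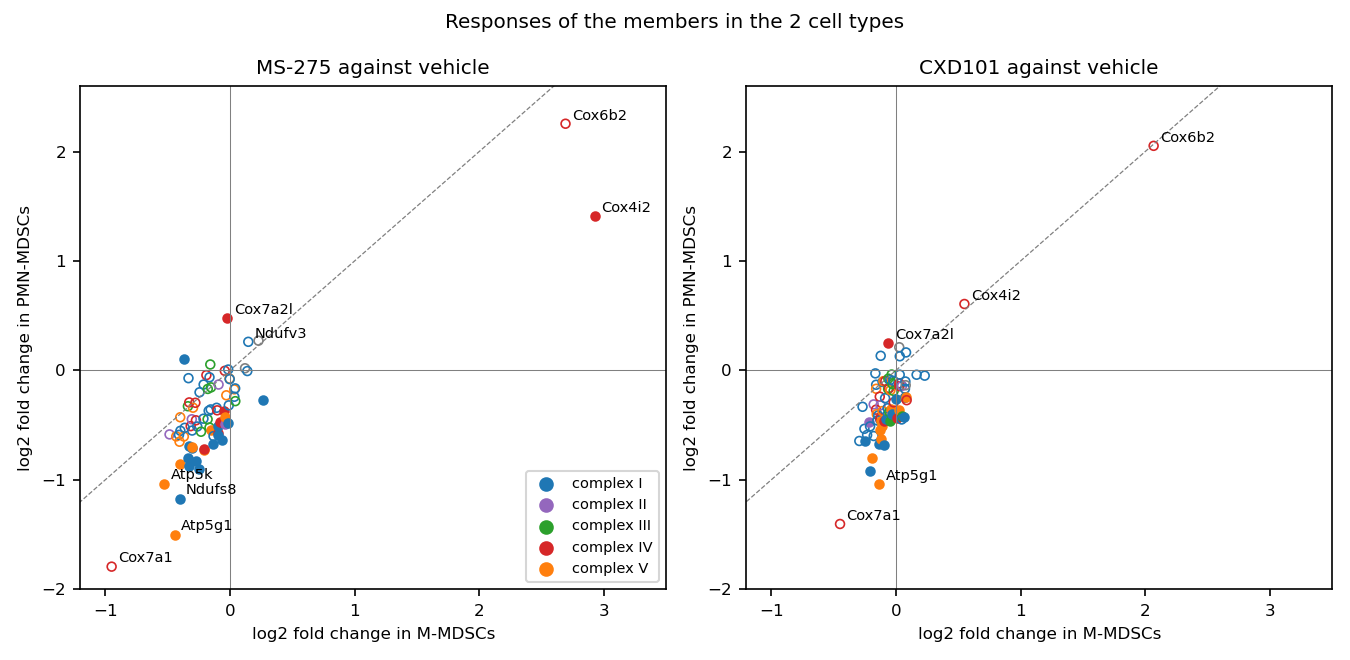
Log2 fold change of each respiratory chain gene in M-MDSCs (horizontal axis) and PMN-MDSCs (vertical axis) for each inhibitor against vehicle, with the line of equal change dashed. Filled points had an adjusted p under 0.05 for the difference between cell types; Atp5g1 and Ndufs8 lie below the line for both inhibitors, and Cox6b2 lies near it for CXD101.

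Genes that work with the chain were followed in lists. With MS-275 in PMN-MDSCs, 13 of 18 genes of the tricarboxylic acid cycle, which supplies NADH and succinate, were lower by adjusted p and 0 higher, with a median of -0.49, where 28.5% of all genes were lower with MS-275 and 23.9% with CXD101. Idh3a, a subunit of isocitrate dehydrogenase, changed by -0.96 ± 0.10 (adjusted p = 0.00016), and Fh1, fumarate hydratase, by -0.88 ± 0.09 (adjusted p = 0.0002). With CXD101 in PMN-MDSCs, 13 of the 18 were also lower. Of 77 genes for proteins of the mitochondrial ribosome, which translates the subunits encoded in mitochondrial DNA, 62 were lower with MS-275 and 52 with CXD101, with medians of -0.50 and -0.41. Of 95 cytosolic ribosomal protein genes, 58 were lower with MS-275 and 64 with CXD101, with medians of -0.29 and -0.35. In M-MDSCs with MS-275, 10 of 18 tricarboxylic acid cycle genes, 27 of 77 mitochondrial and 17 of 95 cytosolic ribosomal genes were lower, against 27.3% of all genes.

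Of 12 tested regulators of respiratory gene transcription, 3 were lower by adjusted p in PMN-MDSCs with MS-275 and 1 with CXD101, none was higher, and the medians were -0.10 and -0.13, against the same 28.5% and 23.9% of all genes lower. Pprc1, a coactivator of the PGC-1 family, fell in PMN-MDSCs with MS-275 (-1.39 ± 0.11, adjusted p = 4.4e-05) and CXD101 (-1.09 ± 0.11, adjusted p = 0.00021). Its response differed between the cell types, by -1.13 ± 0.12 for MS-275 (adjusted p = 9e-05) and -1.03 ± 0.12 for CXD101 (adjusted p = 0.00024). Ppargc1b, another member of the family, fell with MS-275 in PMN-MDSCs (-0.66 ± 0.18, adjusted p = 0.015) and was lower in PMN-MDSCs than in M-MDSCs under vehicle (-1.01 ± 0.14, adjusted p = 0.00012). Under vehicle all 18 tricarboxylic acid cycle genes were lower by adjusted p in PMN-MDSCs than in M-MDSCs, with a median of -0.63, against 31.5% of all genes. Lrpprc, which stabilizes mitochondrial transcripts, was listed with the assembly factors described further on and not with the regulators. It had the largest fall of that list with MS-275 in PMN-MDSCs (-1.16 ± 0.10, adjusted p = 7.8e-05). Of the subunits that the naming rule leaves out, Cyc1, the cytochrome c1 of complex III, and Cycs, cytochrome c itself, were lower in vehicle PMN-MDSCs than M-MDSCs, by -0.84 ± 0.12 (adjusted p = 0.00014) and -0.91 ± 0.07 (adjusted p = 1.5e-06).

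The promoters of the members, whatever their response, were searched for motifs of factors known from respiratory genes. RefSeq promoters, from 250 bases before to 50 after the start, were found for 69 of the 84 genes. The motif of NRF1, a GC-rich inverted repeat, occurred on either strand in 17 of the 69 genes (24.6%) and in 5.19% of all 27025 genes with a promoter. CCGGAA, the core of ETS factors such as GABP, occurred in 37.7% and 16.7%. AANATGGC, a short form of the YY1 motif, occurred in 26.1% and 6.96%. TATAAA occurred in 10.1% and 15.7%. The median GC content of the 250 bases before the start was 56.0% for the members and 52.4% for all promoters, and the shares were not adjusted for it. The background was all genes with a promoter, expressed here or not. A link between the motifs and the responses was not tested. A match of letters is not a bound site.

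The exon-free stretches upstream of Ndufs8, Atp5g1 and Ndufa10, the complex I and c-ring genes that fell most in PMN-MDSCs, are shown because the falls of these genes were the largest of their kind, whether or not a motif was found. Capitals mark the searched motifs: a short YY1 motif in Ndufs8 (chr19:3912775-3913024, minus strand), whose full window also holds an ETS core outside this stretch, ETS cores on both strands in Ndufa10 (chr1:92473861-92474008, minus strand) and no match in Atp5g1 (chr11:96075671-96075881, minus strand).
Ndufs8: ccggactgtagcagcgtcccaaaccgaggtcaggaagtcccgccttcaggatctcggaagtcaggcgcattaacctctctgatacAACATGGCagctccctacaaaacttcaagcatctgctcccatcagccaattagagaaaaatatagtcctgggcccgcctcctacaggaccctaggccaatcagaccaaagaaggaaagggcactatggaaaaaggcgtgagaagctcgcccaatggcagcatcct
Ndufa10: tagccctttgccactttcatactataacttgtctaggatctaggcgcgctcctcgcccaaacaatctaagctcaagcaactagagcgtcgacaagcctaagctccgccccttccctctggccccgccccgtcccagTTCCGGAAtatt
Atp5g1: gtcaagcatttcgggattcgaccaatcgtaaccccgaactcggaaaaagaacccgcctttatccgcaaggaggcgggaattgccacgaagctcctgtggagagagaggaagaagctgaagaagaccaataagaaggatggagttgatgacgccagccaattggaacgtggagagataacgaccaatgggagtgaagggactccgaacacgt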

How the data were processed

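RNA-seq libraries (stranded poly(A) kit, single-end) came from tumor-sorted M-MDSCs and PMN-MDSCs, 12 in all and 2 per group. The authors deposited 1 table of FPKM values per library. The submitters' processing notes name TopHat2 2.1.1, Bowtie2 2.2.8, SAMtools 0.1.18, Cuffdiff 2.2.1 and the build mm10; the annotation, the library normalization and the use of strand are not given in the sources used here. FPKM is relative, so a rise of abundant transcripts lowers other values, and short or repeated genes are less certain: 19 of the 84 genes share at least 1 stretch of 101 bases with another annotated gene.

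Values were tested as log2(FPKM + 1), which understates changes of low genes, in limma 3.58.1 (R 4.3.3) with an intensity trend. Models held the 6 libraries of a cell type, or all 12 for PMN-MDSCs against M-MDSCs and the interactions. Genes that reached an FPKM of 1 in 2 or more libraries of a model entered it: 11078 in M-MDSCs, 11184 in PMN-MDSCs and 11662 in all. Benjamini-Hochberg adjustment covered all genes of a model. With 2 libraries against 2, an exact permutation test cannot go below p = 0.333, so none was used. The procedure was tested on simulated data.

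The members and lists were chosen with earlier results of these data known. Named genes were the called members (if more than 15, the 2 largest per direction and complex), the largest change per complex, a list of core and isoform genes, and called genes of the lists; Ndufa1, Ndufa7, Ndufa8, Ndufa11, Ndufb5, Ndufb8, Ndufb11, Ndufv3, Atp5h and Atp5l were added with their values in view. The call rule is the threshold that the study's methods state for M-MDSCs. The depth was estimated from steps between low FPKM values of genes with 1 transcript and assumes that the authors used its length; it gives no interval. Alternatives were median-of-ratios, quantile and S100-free scaling, a filter at an FPKM of 5 or none, a smaller pseudocount (0.1), a replicate block, no trend, calls without the fold limit, 1 model of all libraries, and leaving out each library. Positions are from GENCODE M21, where all 84 genes were matched, and promoters from RefSeq (GRCm38.p6). Other values and plots were made in Python 3.11.15 (matplotlib 3.10.9, pandas 2.3.3, numpy 2.4.6).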

Additional observations from a re-analysis of the deposited data

Results flagged for a closer look

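Responses that differed between PMN-MDSCs and M-MDSCs were singled out by the interaction test in limma, at an adjusted p under 0.05 and a difference above 1.5-fold. For MS-275 the PMN-MDSC log2 change minus the M-MDSC log2 change was -1.52 for Cox4i2, -1.06 for Atp5g1, -0.77 for Ndufs8 and -0.65 for Ndufa10. For CXD101 it was -0.90 for Atp5g1, -0.71 for Ndufs8 and -0.61 for Atp5k.

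Cox4i2 rose in both cell types with MS-275, by 2.93 and 1.41, in the order M-MDSCs, PMN-MDSCs. The MS-275 changes in M-MDSCs and PMN-MDSCs were -0.44 and -1.502 for Atp5g1, -0.40 and -1.17 for Ndufs8, and -0.25 and -0.90 for Ndufa10, each past the adjusted p limit. With CXD101 Atp5g1, Ndufs8 and Atp5k passed in PMN-MDSCs, while in M-MDSCs their changes were -0.13, -0.21 and -0.19 and did not pass. The difference for Atp5k was not called under quantile normalization or with no filter. With 2 libraries per group, no test for a library far from its group was run.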

How the results depend on the processing

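Only members that passed adjusted p in the main fits were recomputed under the alternatives, and none of 4751 values changed direction. No trend, a changed filter and 1 model of all libraries leave the log2 changes as they are, so direction could not change there. Leaving out a library outside the comparison does the same. So does the replicate block, since each group holds 1 library of each number, except in PMN-MDSCs against M-MDSCs under vehicle. Apart from the fits without 1 library, 2179 values still passed and 238 did not. Counting by adjusted p alone gave, for higher and lower members, 4 and 39 (MS-275) and 3 and 4 (CXD101) in M-MDSCs, 4 and 55 (MS-275) and 2 and 47 (CXD101) in PMN-MDSCs, 1 and 13 for MS-275 against CXD101 in M-MDSCs, 0 and 1 in PMN-MDSCs, 2 and 55 for PMN-MDSCs against M-MDSCs, and 2 and 26 (MS-275) and 1 and 22 (CXD101) for the interactions. The pseudocount of 0.1 gave 2 higher members with CXD101 in M-MDSCs, and the model of all 12 libraries 2 with CXD101 in PMN-MDSCs. The MS-275 interaction gave 14 lower members under quantile normalization and 18 under equal sums without S100a8 and S100a9, and the CXD101 interaction 5 under the latter. The cause was not tested.

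Leaving out 1 library gave, in M-MDSCs, 2 to 3 higher and 1 to 2 lower (MS-275), 1 to 2 higher and 0 to 1 lower (CXD101), and 1 to 1 higher and 0 to 1 lower (MS-275 against CXD101). In PMN-MDSCs it gave 2 to 2 higher and 15 to 27 lower (MS-275), 1 to 2 higher and 8 to 11 lower (CXD101), and 0 to 0 in both directions between the inhibitors. Between cell types it gave 0 to 0 higher and 14 to 24 lower under vehicle, 0 to 1 higher and 3 to 10 lower for the MS-275 interaction, and 0 to 0 higher and 2 to 5 lower for that of CXD101. With a replicate block, though the numbers did not pair libraries, 23 and 11 members were called lower in PMN-MDSCs with MS-275 and CXD101. For PMN-MDSCs against M-MDSCs under vehicle the block gave 17 in place of 19. There 14 calls were shared, Cox6a2, Ndufa9, Ndufb2, Ndufc2 and Uqcrc1 were lost and 3 others gained. The block was fitted within each cell type, so this contrast compared fitted levels of replicate 1 and not group means. The 17 and 19 are therefore not calls of the same difference. By adjusted p alone the block gave 7 in place of 13 lower members for MS-275 against CXD101 in M-MDSCs. The deviations of same-numbered replicates had correlations of -0.12 to 0.07 within a cell type and -0.13 to -0.01 between the cell types under the same treatment.

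By adjusted p alone, the 22 lower members of the CXD101 interaction were 8 without vehicle M-MDSC replicate 1, 9 without CXD101 M-MDSC replicate 1, 12 without vehicle PMN-MDSC replicate 1, 14 without CXD101 PMN-MDSC replicate 2 and 11 with no intensity trend. In the main fit of that interaction, 12% of all genes tested were lower by adjusted p. The vehicle values of the isoform genes rest on few reads, and FPKM values give no counting interval.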

Other observations

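Assembly factors, which build the complexes but are not part of them, were followed as a list of their own. With MS-275 in PMN-MDSCs 8 of 46 were called lower and 3 higher, where 14.2% and 14.6% of all genes were called. The lower ones included Uqcc2, a factor of complex III (-0.70 ± 0.07, adjusted p = 0.0001), Cox20, which escorts a complex IV subunit (-0.71 ± 0.11, adjusted p = 0.0011), and Cox10, which makes heme for complex IV (-0.70 ± 0.16, adjusted p = 0.0083). The higher ones were Atpaf1, a chaperone of the ATP synthase head (0.61 ± 0.12, adjusted p = 0.0035), Nubpl, which delivers iron-sulfur clusters to complex I (0.73 ± 0.21, adjusted p = 0.021), and Sdhaf3 (0.69 ± 0.24, adjusted p = 0.043).

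The assembly factors of complex II, which mature its flavin and iron-sulfur subunits, differed in direction in M-MDSCs with MS-275. Sdhaf4 rose by 0.93 ± 0.13 (adjusted p = 0.00061) and Sdhaf3 by 0.94 ± 0.28 (adjusted p = 0.024), and the change of Sdhaf1 was -0.59 ± 0.09 (adjusted p = 0.00097). In the same cells the iron-sulfur subunit gene Sdhb changed by -0.49 ± 0.06, while Sdhc, a membrane anchor of the complex, differed from vehicle by -0.04 (95% interval -0.20 to 0.12).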
